A study of Mus musculus with 16 samples.

Results

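A group of 9 genes of the complement system was followed in bone marrow-derived dendritic cells (BMDCs): the C1q chains C1qa, C1qb and C1qc, the protease genes C2 and Cfb, the central component C3, the inhibitor Serping1 and the receptors C3ar1 and C5ar1. They were taken by gene symbol from a table of 23356 genes, and all 9 were found, each in 1 row. The marrow donors were wild-type mice or carried a germline knockout, Tmem173-/-, Irf1-/- or Irf3/7-/-, and the cells were grown for 6 days with GM-CSF at 10 ng/ml and IL-4. Cells were left untreated or given c-di-GMP, a bacterial cyclic dinucleotide that activates STING, the product of Tmem173, for 18 h at 25 µg/ml per the labels, while the study's text gives another dose for this stimulation. Each of the 8 conditions held 2 samples, 16 in all, which the authors combined into 1 FPKM value (fragments scaled by transcript length and by the fragments mapped in the library) with an interval. There is therefore no spread between replicates and no p-value, and the intervals are those of the authors' tool.

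Complement is a cascade of plasma and tissue proteins that marks microbes and dying cells. C1q recognises the surface and starts the classical pathway, C2 and factor B supply the proteases of the classical and alternative C3 convertases, and C3 is the protein they cleave. The fragments C3a and C5a act on cells through C3AR1 and C5AR1, and C1 inhibitor, the product of Serping1, blocks the C1 proteases. Macrophages and dendritic cells are a known local source of C1q.

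The 3 C1q genes lie side by side on the minus strand of chromosome 4 (GRCm38). C1qb occupies chr4:136880145-136886177, C1qc chr4:136889802-136892914 and C1qa chr4:136895916-136898844, so that gaps of 3624 and 3001 bases part them and the cluster spans 18700 bases. Cfb, at chr17:34856374-34862514, ends 87 bases before C2, at chr17:34862602-34882100. C3 lies at chr17:57203973-57228136, Serping1 at chr2:84765360-84775429, C3ar1 at chr6:122847140-122856157 and C5ar1 at chr7:16246743-16259540, all on the minus strand. GENCODE also annotates Gm20547 across Cfb and C2 and Zbtb12 within the C2 locus. The libraries were stranded, but whether the step that gave FPKM used strand is not given in the sources used here, so reads of overlapping genes may be shared.

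The 250 bases before the start site are printed for C1qb and C1qc, neighbours that moved together across conditions, and for C3ar1, which rose with c-di-GMP, from RefSeq (GRCm38.p6, minus strand, 5′ to 3′). The RefSeq table matched 5 members, C1qb, C1qc, C3, C3ar1 and C5ar1, and not C1qa, C2, Cfb or Serping1. Capitals mark motif matches. The windows are chr4:136886201-136886450 for C1qb, chr4:136892915-136893164 for C1qc and chr6:122856158-122856407 for C3ar1.

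C1qb: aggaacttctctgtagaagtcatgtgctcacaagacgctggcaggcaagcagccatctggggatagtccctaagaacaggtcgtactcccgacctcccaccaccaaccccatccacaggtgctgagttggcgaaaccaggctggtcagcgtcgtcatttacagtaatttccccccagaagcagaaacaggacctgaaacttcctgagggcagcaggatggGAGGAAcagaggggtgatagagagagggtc

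C1qc: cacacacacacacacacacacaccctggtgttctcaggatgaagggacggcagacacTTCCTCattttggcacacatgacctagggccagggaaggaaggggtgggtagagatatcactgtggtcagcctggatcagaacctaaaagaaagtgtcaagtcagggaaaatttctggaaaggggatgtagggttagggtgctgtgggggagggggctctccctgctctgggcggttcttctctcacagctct

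C3ar1: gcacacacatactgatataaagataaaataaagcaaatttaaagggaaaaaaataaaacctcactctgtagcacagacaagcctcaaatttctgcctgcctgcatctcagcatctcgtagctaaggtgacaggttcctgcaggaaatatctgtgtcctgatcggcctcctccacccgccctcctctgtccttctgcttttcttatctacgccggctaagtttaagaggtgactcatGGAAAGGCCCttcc

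Both strands of the 5 windows were searched for 5 motifs, which can overlap one another. The core bound by PU.1, GAGGAA, was found in C1qb at -30 to -25 and, on the other strand, in C1qc at -193 to -188, and 23.3% of 32851 promoters hold it. Positions count from the RefSeq start site, and the GENCODE start of C1qc, at 136893065, lies inside the window and nearer to the C1qc match. A kappaB form (GGG, any 2 bases, TT, any base, CC) was found on the other strand of C3ar1 at -14 to -5 and is held by 4.11% of promoters. The interferon-stimulated response element core (GAAA, any 2 bases, GAAA), in 2.98% of promoters, the ETS-IRF composite (GGAA, any 2 bases, GAAA), in 2.3%, and the GAS form TTCNNNGAA, in 7.02%, were in none of the 5 windows. With its last base dropped, a form tried after those matches were seen and held by 7.13% of promoters, the response element core was in C5ar1 alone, at -66 to -58. The C5ar1 window, chr7:16259339-16259588, begins inside the C5ar1 locus given above, which ends at 16259540, and this match lies within that locus. All of these are letter matches and no evidence of binding.

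The labels were checked first. Tmem173 stood at 103 and 118 FPKM in untreated and treated wild-type cells and at 8.97 and 7.49 FPKM in Tmem173-/- cells. Irf1 was at 149 and 245 FPKM in wild type and at 25.9 and 116 FPKM in Irf1-/- cells, and it was also lower in Tmem173-/- cells, at 24.1 and 23.3 FPKM. Irf7 was at 15.2 and 687 FPKM in wild type and at 1.07 and 4.97 FPKM in cells labelled Irf3/7-/-, but Irf3, at 7.74 FPKM untreated and 20.2 FPKM treated in those cells, was below the wild-type 19.9 FPKM only without treatment and above the wild-type 15.8 FPKM with it. A value over the whole gene does not show which exons were deleted, so conditions are named here as labelled. Of the dendritic cell markers, Itgax stood at 135 to 369 FPKM, Cd74 at 3336 to 4983 FPKM and Zbtb46 at 11.6 to 23 FPKM. Ccr7 stood at 114 to 1257 FPKM, H2-Ab1 at 278 to 890 FPKM, Irf4 at 70.4 to 345 FPKM and Batf3 at 56.8 to 241 FPKM. Others were low: Dpp4 at 3.01 to 7.78 FPKM, Flt3 at 1.17 to 2.75 FPKM and Clec9a at 0.255 to 4.63 FPKM. Cd209a was at 0 to 3.1 FPKM, and Xcr1 did not exceed 1.12 FPKM. The dendritic cell list (12 genes) summed to 4792 to 7674 FPKM, and the macrophage list (14 genes) to 710 to 9513 FPKM, above the dendritic cell list in both Tmem173-/- conditions. That excess came from 1 gene, Lyz2, without which the macrophage list summed to 513 and 495 FPKM in untreated and treated Tmem173-/- cells. Cd74 made up most of the dendritic cell sum.

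A gene was called in a comparison where log2(FPKM + 0.1) differed by more than 1 (2-fold), the authors' intervals did not overlap, and 1 of the conditions reached 1 FPKM. In wild-type cells c-di-GMP split the members: 3 of 8 tested rose (Cfb, Serping1 and C3ar1) and 3 fell (the C1q chains), where 10.5% of all tested genes rose and 9.96% fell. In Tmem173-/- cells none of 7 tested was called, against 0.046% of all genes higher and 0.0092% lower. In Irf1-/- cells 2 of 7 rose, Cfb and C3ar1, and none fell (all genes 9.67% higher, 7.81% lower). C2 and Serping1 stayed under 1 FPKM in Irf1-/- cells and were not tested there. In cells labelled Irf3/7-/- 4 of 8 rose, Cfb, Serping1, C3ar1 and C5ar1, and 2 fell, C1qa and C1qb (all genes 10.2% higher, 7.68% lower). These comparisons use separate cells, whereas those between genotypes share the wild-type values.

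**Figure D1:**
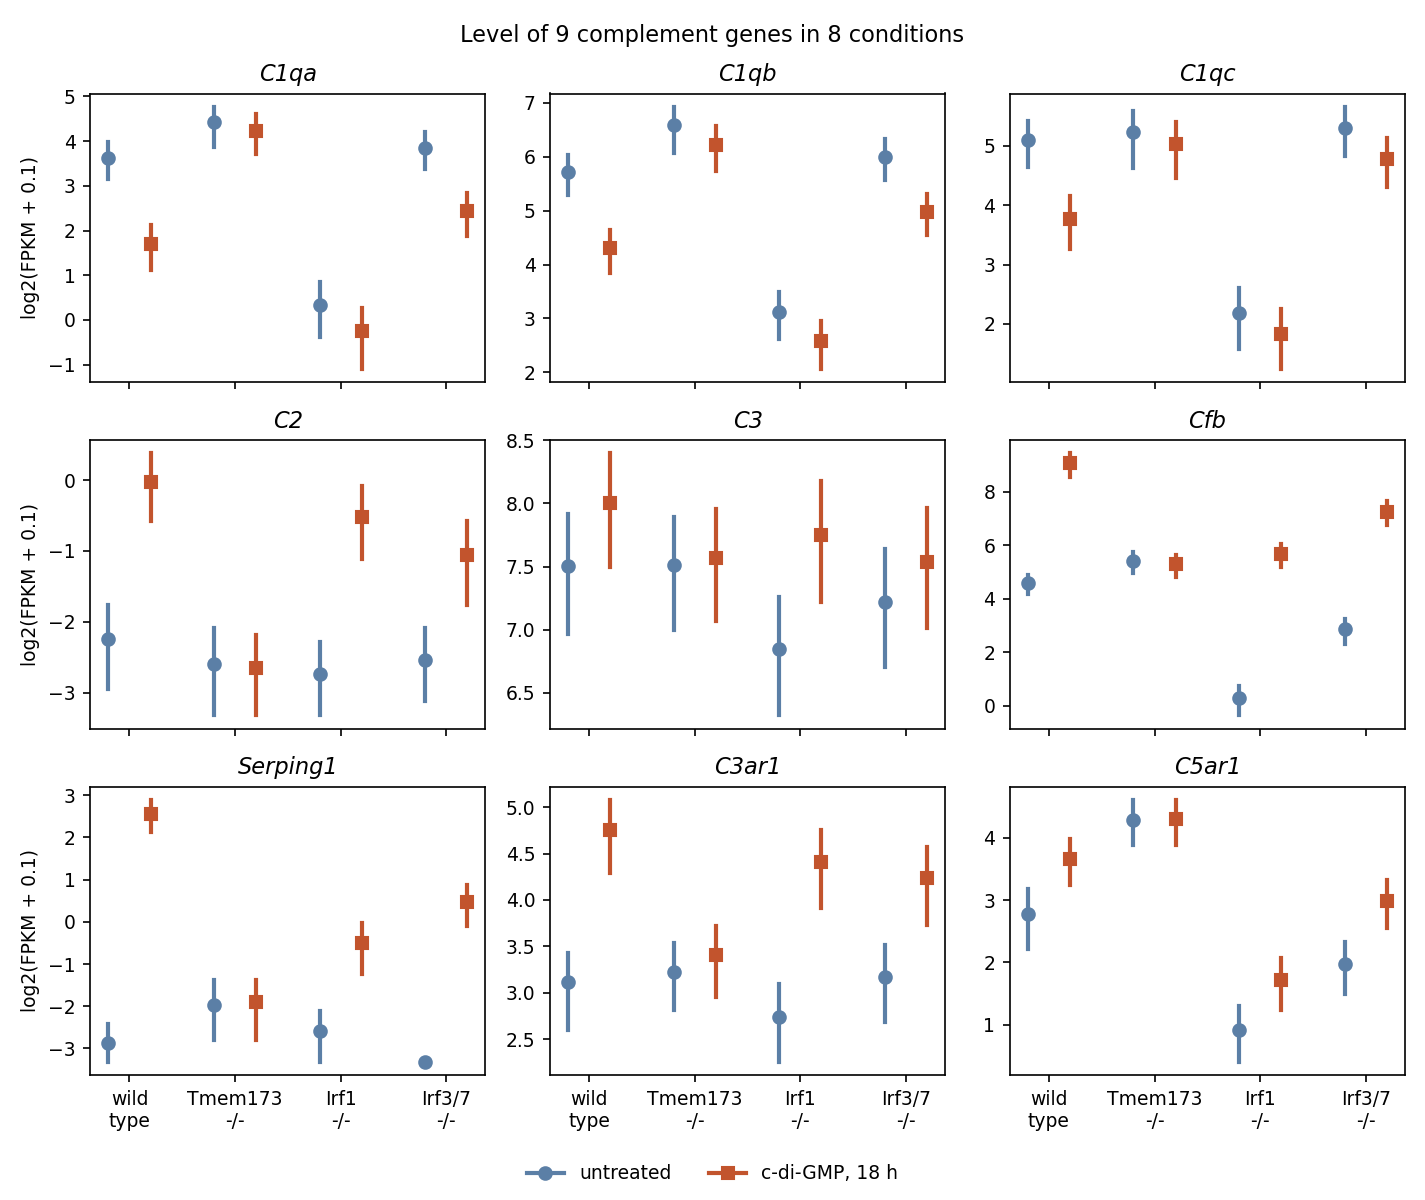
Levels of the 9 genes, as log2(FPKM + 0.1) on the vertical axis, in untreated (circles) and c-di-GMP treated (squares) cells of the 4 genotypes, with 1 value per condition and bars for the authors' interval. The C1q chains are lowest in both Irf1-/- conditions, and Cfb is highest in treated wild-type cells, at 534 FPKM.

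The C1q chains fell with c-di-GMP in wild-type cells and were lowest without Irf1. C1qa was at 12.2 FPKM in untreated and 3.14 FPKM in treated wild-type cells, at 21.3 and 18.7 FPKM in Tmem173-/-, at 1.17 and 0.739 FPKM in Irf1-/- and at 14.3 and 5.32 FPKM in cells labelled Irf3/7-/-. C1qb, in the same order, was at 52.4 and 19.7 FPKM, 96.3 and 74.4 FPKM, 8.60 and 5.88 FPKM, and 63.7 and 31.4 FPKM. C1qc was at 34.1 and 13.6 FPKM, 37.4 and 32.5 FPKM, 4.43 and 3.47 FPKM, and 39.5 and 27.5 FPKM. For each chain, the intervals of both Irf1-/- conditions lay below those of all 6 other conditions.

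In wild-type cells the log2 change with c-di-GMP was -1.93 for C1qa, a 3.89-fold lower level, -1.41 for C1qb and -1.31 for C1qc. In cells labelled Irf3/7-/- C1qa fell by 1.41 and C1qb by 1.02 on the log2 scale, while C1qc, at -0.52, was not called. The C1qb call there ends with a pseudocount of 1 FPKM, which brings the change just inside 2-fold. The median of the chains was -1.41 in wild type, where that of all tested genes was 0.00. In Irf1-/- cells the changes were -0.60, -0.54 and -0.34, and in Tmem173-/- cells -0.18, -0.37 and -0.20, none of them called.

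The difference between knockout and wild type in that change was tested with an approximate 95% interval built from the authors' intervals, and called where it excluded 0 and exceeded 1. For Tmem173-/- it was 1.74 for C1qa (0.87 to 2.61), 1.04 for C1qb (0.26 to 1.82) and 1.11 for C1qc (0.25 to 1.97), all called, where 21.3% of all genes were. For Irf1-/- only C1qa was called among the chains, at 1.33 (0.26 to 2.39), where 4.68% of all genes were, and C1qb, at 0.87 (0.06 to 1.68), and C1qc, at 0.97 (0.07 to 1.87), stayed under the size threshold. For cells labelled Irf3/7-/-, where 6.04% of all genes were called, the intervals of the 3 chains included 0, from -0.36 to 1.39 for C1qa, -0.36 to 1.14 for C1qb and -0.01 to 1.61 for C1qc.

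**Figure D2:**
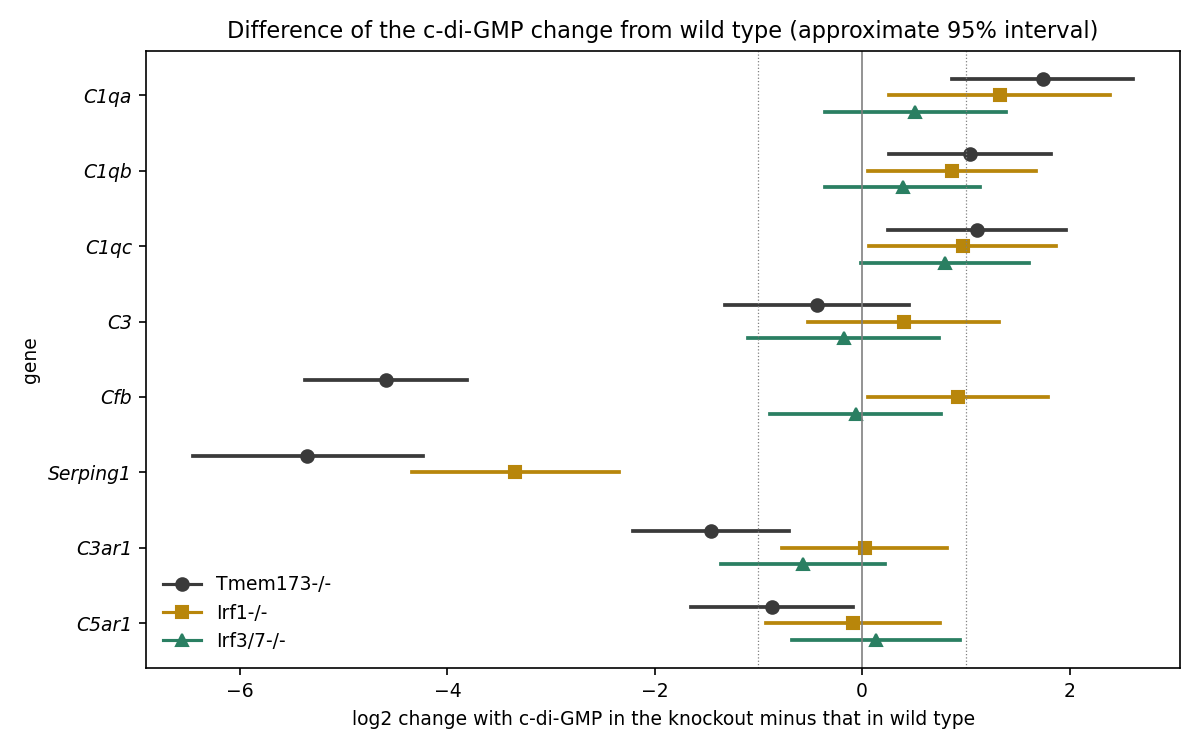
Log2 change with c-di-GMP in each knockout minus that in wild type (horizontal axis) for 8 genes, with approximate 95% intervals as bars and dotted lines at the size threshold of 1. Cfb and Serping1 lie farthest from 0 in Tmem173-/- cells, at -4.59 and -5.35, and the C1q chains lie to the right of 0. Serping1 has no Irf3/7-/- value, since it was listed at 0 there without treatment.

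Between genotypes without treatment, the chains were lower in Irf1-/- than in wild-type cells by 10.4-fold for C1qa, 6.1-fold for C1qb and 7.7-fold for C1qc (log2 -3.28, -2.59 and -2.92). With Cfb and C5ar1 this made 5 of 7 members lower and none higher, against 3.52% of all genes lower and 1.26% higher. After treatment they were lower by 4.26-fold, 3.35-fold and 3.94-fold, among 6 of 8 members lower and none higher (all genes 4.91% lower, 2.65% higher). In untreated Tmem173-/- cells no chain was called, C1qa differing by 0.79, C1qb by 0.88 and C1qc by 0.13 on the log2 scale. The C1qb intervals were apart, with the difference under 2-fold. In that comparison 1 of 7 members, C5ar1, was higher and none lower (all genes 5.04% higher, 5.95% lower). After treatment all 3 chains were higher than in wild type, by 5.96-fold, 3.78-fold and 2.38-fold, so that 3 of 8 members were higher and 3 lower (all genes 12.9% higher, 13.5% lower).

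In cells labelled Irf3/7-/- the chains did not differ by a call without treatment (0.23, 0.28 and 0.21), and 1 of 7 members, Cfb, was lower and none higher (all genes 0.863% lower, 1.17% higher). After treatment C1qc was higher, at 1.01, a call that a pseudocount of 1 FPKM ends at 0.96, and 1 of 8 members was higher and 2 lower (all genes 4.61% higher, 2.69% lower). C1qa, at 0.74, and C1qb, at 0.67, were not called.

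The 3 chains form 1 protein, and their summed level ran from 10.1 FPKM in treated Irf1-/- to 155 FPKM in untreated Tmem173-/- cells. The level of C1qb relative to C1qa ran from 3.97 in treated Tmem173-/- to 7.96 in treated Irf1-/- cells, and that relative to C1qc from 1.14 in treated cells labelled Irf3/7-/- to 2.57 in untreated Tmem173-/- cells. No interval was computed for these ratios, and C1qa in treated Irf1-/- cells, at 0.739 FPKM, had an interval of 0.368 to 1.10.

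Macrophage markers moved with some of these values. The whole list (14 genes) summed to 965 and 710 FPKM in untreated and treated wild type, 9513 and 7736 FPKM in Tmem173-/-, 1538 and 743 FPKM in Irf1-/- and 1121 and 1013 FPKM in cells labelled Irf3/7-/-. Lyz2, encoding lysozyme, made up most of it, at 9000 and 7240 FPKM in Tmem173-/- and 776 and 423 FPKM in wild-type cells. Without Lyz2 the sums were 189 and 287 FPKM in wild type, 513 and 495 FPKM in Tmem173-/-, 209 and 181 FPKM in Irf1-/- and 184 and 293 FPKM in cells labelled Irf3/7-/-, so that the direction of the wild-type sum with c-di-GMP depended on that gene.

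In Tmem173-/- cells 6 of 11 tested macrophage genes were higher than in wild type and none lower without treatment (median log2 difference 1.36), and 6 were higher and 1 lower after it (1.48), where all genes had medians of 0.01 and 0.02. Of all genes 5.04% were higher and 5.95% lower without treatment, and 12.9% higher and 13.5% lower after it. Csf1r, the receptor of M-CSF, was at 194 and 204 FPKM in Tmem173-/- cells, against 54.3 and 48.6 FPKM in wild type, and the mannose receptor gene Mrc1 at 42.7 and 48.7 FPKM, against 9.52 and 0.721 FPKM. The gene lower after treatment was Mertk, at 3.74 FPKM against 16.9 FPKM in wild type. Of the dendritic cell list, 2 of 11 tested were higher and 1 lower in untreated Tmem173-/- cells than in wild type. After treatment 3 of 12 were higher (Itgax, Clec9a and Cd209a) and 4 lower (Ccr7, Irf4, Batf3 and Xcr1), beside the same shares of all genes. In Irf1-/- cells 3 of 10 macrophage genes were lower and none higher without treatment (median -0.28), and 1 was lower and 1 higher after it (-0.74). Of all genes 3.52% were lower and 1.26% higher without treatment, and 4.91% lower and 2.65% higher after it. With c-di-GMP in wild type 2 of 10 macrophage genes rose and 2 fell (0.11), where 10.5% of all genes rose and 9.96% fell. Cd163, Timd4 and Folr2 stayed under 1 FPKM in every condition, Cd163 being at 0.493 and 0.576 FPKM in Tmem173-/- and at 0.0195 and 0.00593 FPKM in wild-type cells. The part of other cells in the C1q values was not tested, and in bulk samples fewer cells of a type cannot be told apart from less RNA per cell.

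Cfb, the protease gene of the alternative pathway, ran 479-fold between its highest and lowest condition, the widest range of the 8 members that were above 0 in every condition. It was at 23.9 FPKM (interval 18.1 to 29.6) in untreated and 534 FPKM (374 to 695) in treated wild-type cells. In Tmem173-/- cells it was at 42.3 and 39 FPKM, in Irf1-/- cells at 1.11 and 51.1 FPKM, and in cells labelled Irf3/7-/- at 7.11 and 153 FPKM. The 3 highest conditions were thus the treated ones that have Tmem173, and treated Irf1-/- cells overlapped the Tmem173-/- cells.

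With c-di-GMP, Cfb rose 22.4-fold in wild type, 45.9-fold in Irf1-/- and 21.6-fold in cells labelled Irf3/7-/-, and differed by -0.12 on the log2 scale in Tmem173-/- cells. The change differed from that of wild type in Tmem173-/- cells, by -4.59 (-5.37 to -3.81). In Irf1-/- cells the difference was 0.92 (0.06 to 1.79), under the size threshold, and 0.20 (-0.55 to 0.94) with a pseudocount of 1 FPKM, and in cells labelled Irf3/7-/- it was -0.06 (-0.89 to 0.76). The level itself was lower than in wild type in Irf1-/- cells by 21.4-fold untreated and 10.4-fold treated, and in cells labelled Irf3/7-/- by 3.36-fold and 3.48-fold. In Tmem173-/- cells it was 13.7-fold lower after treatment and, without treatment, 0.82 higher on the log2 scale with intervals apart but under 2-fold.

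The interferon-stimulated list (12 genes) rose as a whole with c-di-GMP in wild type, Irf1-/- and cells labelled Irf3/7-/-, 12 of 12 in each, with median log2 changes of 5.46, 6.97 and 5.21 where the median of all tested genes was 0.00, and 0 of 8 tested were called in Tmem173-/- cells. Of all genes 10.5%, 9.67% and 10.2% rose in the first 3 of these, and 0.046% in Tmem173-/- cells. Irf7, itself deleted in Irf3/7-/- mice, is on that list. After treatment 2 of its 12 genes were lower in Irf1-/- than in wild type and 4 in cells labelled Irf3/7-/-, beside the lower Cfb of both (all genes 4.91% and 2.69% lower). Without treatment 8 of 12 were lower in Irf1-/-, 6 in cells labelled Irf3/7-/- and 10 in Tmem173-/- cells, where Cfb was not lower (all genes 3.52%, 0.863% and 5.95% lower, in that order). The part of interferon signalling in the Cfb values was not tested.

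C2, the classical pathway protease gene next to Cfb, stayed under 1 FPKM in every condition and was not tested. It was at 0.111 and 0.88 FPKM in untreated and treated wild type, at 0.066 and 0.0589 FPKM in Tmem173-/-, at 0.0493 and 0.598 FPKM in Irf1-/- and at 0.0719 and 0.38 FPKM in cells labelled Irf3/7-/-. The intervals of treated and untreated cells were apart in wild type, Irf1-/- and Irf3/7-/- cells and overlapped in Tmem173-/- cells.

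C3, from which C3a and C3b are cut, was abundant in every condition and was called in none of the 10 comparisons. It was at 181 and 256 FPKM in wild type, 182 and 190 FPKM in Tmem173-/-, 115 and 215 FPKM in Irf1-/- and 149 and 186 FPKM in cells labelled Irf3/7-/-. Its highest and lowest conditions differed by 2.22-fold, and 1 of the 28 pairs of conditions had intervals apart. The largest change with c-di-GMP was 0.90 on the log2 scale, in Irf1-/- cells.

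Serping1, whose product inhibits the C1 proteases, was near 0 without treatment and rose in wild type. It was at 0.0369 FPKM (0 to 0.087) in untreated and 5.8 FPKM (4.26 to 7.32) in treated wild-type cells, a log2 change of 5.43 that is 2.71 with a pseudocount of 1 FPKM. In Tmem173-/- cells it was at 0.154 and 0.17 FPKM and in Irf1-/- cells at 0.0663 and 0.605 FPKM, under 1 FPKM and so not tested within either genotype. The intervals of treated and untreated cells were apart in Irf1-/- cells, with the treated level higher, and overlapped in Tmem173-/- cells. In cells labelled Irf3/7-/- it was listed at 0 without treatment and at 1.29 FPKM (0.830 to 1.73) with it, and no fold is given. The treated level was lower than in wild type by 34.2-fold in Tmem173-/-, 9.58-fold in Irf1-/- and 4.5-fold in cells labelled Irf3/7-/-. The first of these rests on 0.17 FPKM with an interval of 0.0437 to 0.284, and its log2 difference of -4.45 is -2.54 with a pseudocount of 1 FPKM. The change with c-di-GMP differed from that of wild type by -5.35 (-6.45 to -4.24) in Tmem173-/- and by -3.35 (-4.34 to -2.35) in Irf1-/- cells, and by -2.69 and -2.12 with a pseudocount of 1 FPKM, both still called.

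C3ar1, the receptor of C3a, rose with c-di-GMP wherever Tmem173 was intact. It was at 8.56 and 26.8 FPKM in wild type, 9.23 and 10.5 FPKM in Tmem173-/-, 6.59 and 21.1 FPKM in Irf1-/- and 8.88 and 18.7 FPKM in cells labelled Irf3/7-/-. The 3 treated conditions with Tmem173 stood above the other 5, and the gap between 18.7 and 10.5 FPKM was the only one between neighbours in order with intervals apart. These intervals were only just apart, with a lower bound of 13.2 FPKM and an upper bound of 13.1 FPKM. It rose 3.13-fold in wild type, 3.2-fold in Irf1-/- and 2.1-fold in cells labelled Irf3/7-/-, the last a call that a pseudocount of 1 FPKM ends at 0.99. The change differed from that of wild type by -1.46 (-2.21 to -0.71) in Tmem173-/- cells, by 0.03 (-0.77 to 0.82) in Irf1-/- cells and by -0.57 (-1.36 to 0.22) in cells labelled Irf3/7-/-.

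C5ar1, the receptor of C5a, was called in 4 of 10 comparisons, 3 of them between genotypes. It was at 6.72 and 12.5 FPKM in wild type, 19.4 and 19.6 FPKM in Tmem173-/-, 1.78 and 3.17 FPKM in Irf1-/- and 3.81 and 7.81 FPKM in cells labelled Irf3/7-/-. Without treatment it was 2.88-fold higher in Tmem173-/- and 3.77-fold lower in Irf1-/- than in wild-type cells, and after treatment 3.94-fold lower in Irf1-/- cells. With c-di-GMP it rose in cells labelled Irf3/7-/-, by 1.02 on the log2 scale, a call that a pseudocount of 1 FPKM ends at 0.87. In wild type the change was 0.88, with intervals apart and under 2-fold, and in Irf1-/- cells 0.80. No difference of the change from wild type was called. In Tmem173-/- cells that difference was -0.87 (-1.65 to -0.09), an interval that excluded 0 with a size under the threshold.

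**Figure D3:**
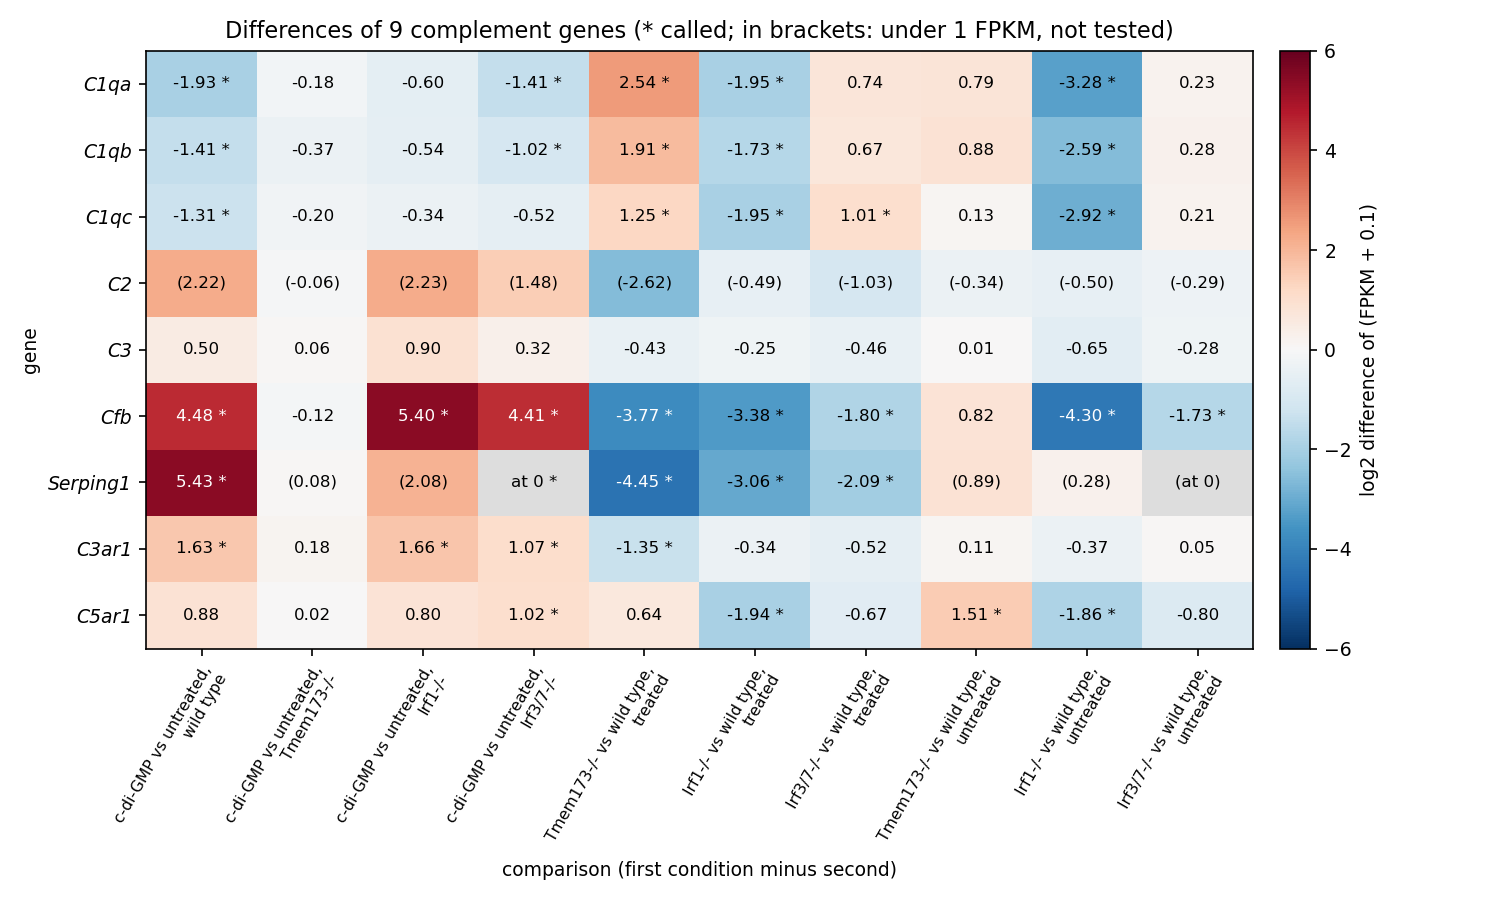
Log2 differences of (FPKM + 0.1) of the 9 genes (rows) in 10 comparisons (columns), red where the first condition is higher and blue where it is lower, with called values starred and untested ones in brackets. No member is called in Tmem173-/- cells with c-di-GMP, and C3 is called nowhere.

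Across the 8 conditions C1qa was most like C1qb, with a Pearson correlation of log2(FPKM + 0.1) of 0.998, C1qc at 0.962 and Emb at 0.954, among 7381 genes. For Cfb the closest were Ly6c2 at 0.990, Ly6c1 at 0.982 and Ly6f at 0.975. For C3ar1 they were Mdfic at 0.997, Tmem243 and Dennd3 at 0.992, for C5ar1 Ncf1 at 0.974, and for C3 Camk2d at 0.958. For Serping1 the closest, Sppl3 at 0.988, ran only from 18 to 21.4 FPKM. These describe 8 values, 1 per condition, that share genotypes and treatment, and carry no p.

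Of 42 other complement genes, 12 reached 1 FPKM in a condition. They were 3 of 6 classical pathway genes, 1 of 8 lectin, 1 of 2 alternative, 1 of 7 fluid inhibitors, 2 of 6 membrane inhibitors, 4 of 6 receptors and none of 7 of the terminal pathway. With c-di-GMP 3 of 9 tested rose and 1 fell in wild type, none of 11 was called in Tmem173-/-, 4 of 10 rose and 1 fell in Irf1-/-, and 1 of 9 rose in cells labelled Irf3/7-/-. Of all genes 10.5% rose and 9.96% fell in wild type, and 0.046% and 0.0092% in Tmem173-/- cells. In Irf1-/- cells 9.67% of all genes rose and 7.81% fell, and in cells labelled Irf3/7-/- 10.2% and 7.68%. The median log2 changes of the complement genes tested, in the same order of genotypes, were 0.11, 0.04, 0.74 and 0.12, against 0.00, -0.02, 0.00 and 0.00 over all genes.

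Clu, which encodes the terminal pathway inhibitor clusterin, rose from 7.94 to 54.6 FPKM in wild type, from 13.7 to 130 FPKM in Irf1-/- and from 4.67 to 22.4 FPKM in cells labelled Irf3/7-/-, and was at 21.5 and 17.7 FPKM in Tmem173-/- cells. Unlike Cfb and Serping1, treated Irf1-/- cells had more Clu than treated wild type, by 1.25 on the log2 scale. C1ra, the C1r protease gene, rose from 2.35 to 6.04 FPKM in wild type, though it has a near copy, C1rb, with which reads could be shared. C1ra also rose in Irf1-/- cells, from 0.293 to 2.32 FPKM. It was at 3.38 and 2.58 FPKM in Tmem173-/- and 2.38 and 2.6 FPKM in cells labelled Irf3/7-/-, neither change called. After treatment it was lower than in wild type in each knockout, and without treatment in Irf1-/- cells alone. Itgam, a chain of complement receptor 3, fell from 164 to 77.9 FPKM in wild type and stood at 355 FPKM in treated Tmem173-/- cells. Its partner chain Itgb2 was higher in Tmem173-/- than in wild-type cells without treatment, at 520 against 259 FPKM, and with it, at 533 against 210 FPKM. Itgax, a chain of complement receptor 4, was higher there after treatment, at 328 against 135 FPKM. Fcnb, encoding a ficolin that starts the lectin pathway, was higher in both, at 9.02 against 0.367 FPKM and 7.71 against 0.958 FPKM. Cfp, encoding properdin, which stabilises the alternative convertase, was at 177 to 532 FPKM and never called.

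**Figure D4:**
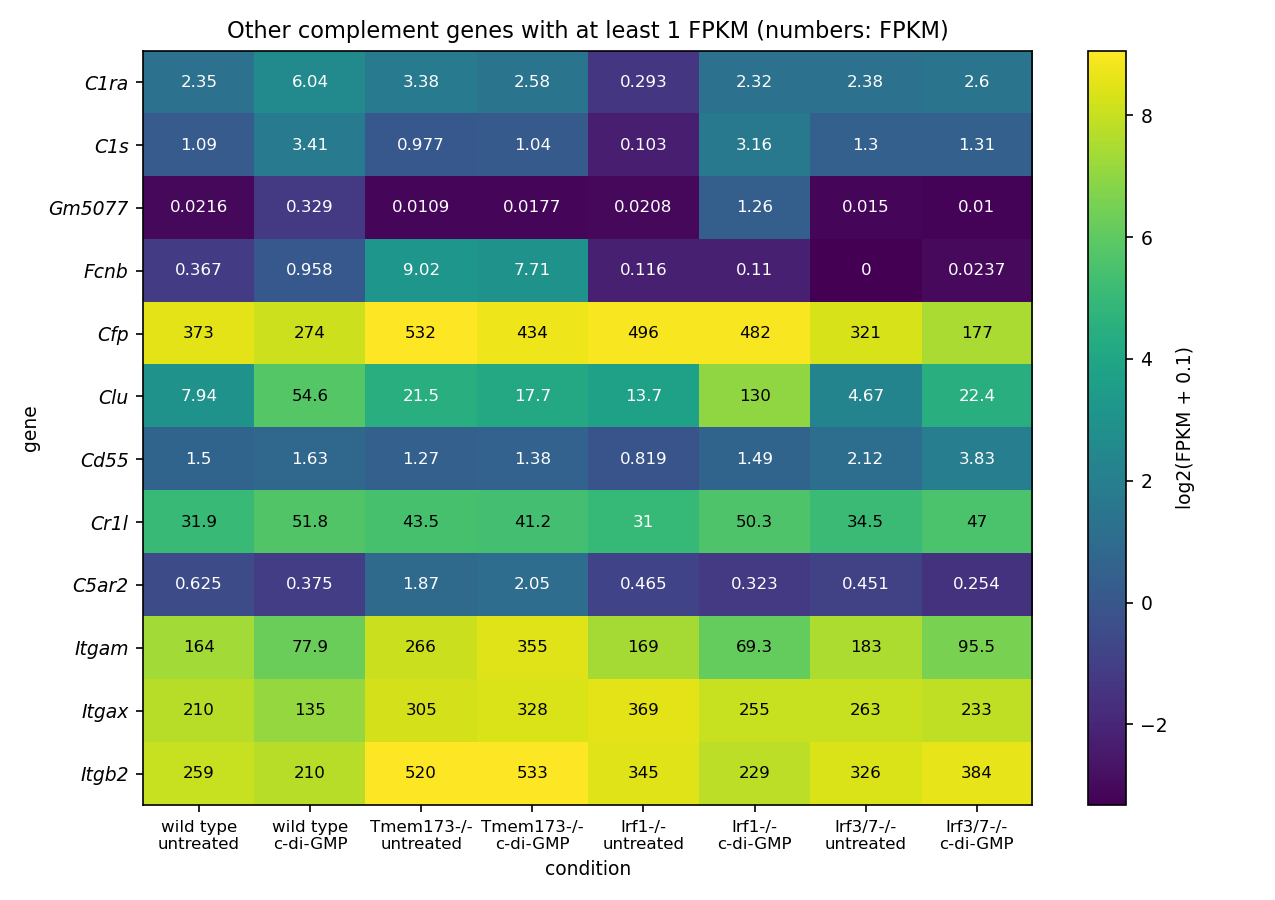
FPKM of the 12 other complement genes that reached 1 FPKM (rows) in the 8 conditions (columns), coloured by log2(FPKM + 0.1). Clu is highest in treated Irf1-/- cells, at 130 FPKM, and Cfp is at 177 FPKM or more in every condition.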

How the data were processed

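RNA of 16 BMDC samples, 2 in each of 8 conditions, was sequenced. The authors deposited 1 FPKM value per gene and condition from Cuffdiff (version 1.06 in the submitters' processing notes), with a lower and upper bound. Both samples of a condition are assumed to be combined in that value. The notes name mm9, but 21454 of 21681 loci overlap the gene of that name in GRCm38, so positions are GRCm38. Libraries came from a stranded mRNA kit and the study set its SeqMonk analysis to the opposing strand, but the aligner, the annotation and Cuffdiff's own strand setting are not given in the sources used here. One column, that of treated Tmem173-/- cells, has a garbled name and was assigned because its ratios to wild type equal those under that condition's name in the study's supplement. Columns of 4 values from another knockout were not used.

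Differences were taken on log2(FPKM + 0.1) and called at 2-fold, with intervals apart, 1 FPKM in 1 condition and status OK. Differences between genotypes in the change read the mean of the distances from FPKM to the lower and upper bound as 1.96 standard errors, also where the lower bound was 0. Genes with an interval of width 0 were left out of them, a departure from the planned design. All genes of the table were run. The members, gene lists and tests were chosen with earlier results of these data known. Other complement genes were named where called and at 5 FPKM, besides Cfp, chosen after its values were seen, and the 3 most correlated genes (10 FPKM in a condition) per member. The letters of 5 motifs were searched, and shorter forms of 2 of them were added after seeing the matches. Alternatives were a pseudocount of 1, no filter, 5 FPKM, 1.5-fold, 4-fold, median centring, fold alone, and z scores from the intervals with q under 0.05.

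The study states a targeted depth, but the depth reached could not be read from the FPKM: in ratios of 7 conditions to untreated wild type no step of single reads was visible, the fullest bin of 0.05 log2 holding 2.72 to 4% of low genes. The mean of the distances from FPKM to the lower and upper bound had a median of 25.2 to 25.7% of FPKM over 4723 genes at 10 FPKM or more. Among the members without C2 and Serping1 it reached 43.9% in untreated and 49.7% in treated Irf1-/- cells. In the other conditions the highest was 31.1 to 34.5%. Code was tested on simulated data. Scripts ran under Python 3.11.15 with pandas 2.3.3, numpy 2.4.6, matplotlib 3.10.9 and scipy 1.17.1.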

Additional observations from a re-analysis of the deposited data

Results flagged for a closer look

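The values below were singled out because the change with c-di-GMP differed between a knockout and wild type by more than 1 on the log2 scale with a 95% interval that excluded 0. In Tmem173-/- cells the difference was 1.74 for C1qa, 1.04 for C1qb and 1.11 for C1qc, whose fall in wild type was larger, and -4.59 for Cfb, -5.35 for Serping1 and -1.46 for C3ar1, whose rise was larger in wild type. In Irf1-/- cells it was 1.33 for C1qa, which was already low without treatment, at 1.17 FPKM, and -3.35 for Serping1. The intervals rest on 1 value per condition, assumed to combine 2 samples.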

How the results depend on the processing

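Of the 36 calls of members in 75 comparisons tested, 14 held under all 8 alternatives. Among single values with a log2 difference that were tested under both the main setting and the alternative, 559 kept their side of the threshold. In 25 the call was lost (21 of them at 4-fold and 4 with a pseudocount of 1), and in 3, all at 1.5-fold, it was gained. Values that a filter on FPKM added or removed are outside this tally. With 5 FPKM, 5 members in place of 6 were called with c-di-GMP in Irf3/7-/- cells, and likewise in treated Irf1-/- cells against wild type. One sign changed: C5ar1 with c-di-GMP in Tmem173-/- cells, 0.02 and not called, was -0.01 with median centring. Members called at 4-fold numbered 2 with c-di-GMP in wild type, 1 in Irf1-/- and 2 in Irf3/7-/- cells. Against treated wild type they numbered 3 in Tmem173-/-, 2 in Irf1-/- and 1 in Irf3/7-/- cells, and against untreated wild type 0 in Tmem173-/- and 0 in Irf3/7-/- cells. Without the filter there were 4 with c-di-GMP in Irf1-/- cells, with a pseudocount of 1 there were 3 in Irf3/7-/- cells, and at 1.5-fold 3 in untreated Tmem173-/- cells.

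For the other complement genes, no filter gave 7 with c-di-GMP in wild type, 8 in Irf1-/- and 3 in Irf3/7-/- cells, 14, 5 and 7 in treated Tmem173-/-, Irf1-/- and Irf3/7-/- against wild type, and 4 and 3 in untreated Irf1-/- and Irf3/7-/-. At 4-fold there were 1 with c-di-GMP in wild type, 3, 0 and 0 in the treated knockouts in that order, and 1 in untreated Tmem173-/-. At 1.5-fold there were 4 with c-di-GMP in Irf3/7-/-, 5 in treated Irf1-/-, 4 in untreated Irf1-/- and 1 in untreated Irf3/7-/-. With 5 FPKM there were 2 with c-di-GMP in Irf1-/-, 2 in treated Irf3/7-/- and 0 in untreated Irf1-/-, and with a pseudocount of 1 there was 1 in each of treated Irf3/7-/- and untreated Irf1-/-. More or fewer genes pass these filters and fold limits by construction. Members whose change differed from wild type numbered 6 in Tmem173-/-, 2 in Irf1-/- and 0 in Irf3/7-/- cells, where 21.3%, 4.68% and 6.04% of all genes were called. C2 was not tested for this, nor was Serping1 in Irf3/7-/- cells. These counts were the same under the 2 alternatives run for them, a pseudocount of 1 and 5 FPKM.

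No paired analysis was possible because the authors combined both samples of a condition into 1 value, which also leaves no replicate to omit.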
